A study of Caenorhabditis elegans with 104 samples.

Results

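The 4 genes described here are the metal response genes numr-1 (F08F8.5), mtl-1 (K11G9.6), mtl-2 (T08G5.10) and cdr-1 (F35E8.11), of 18889 genes measured. numr-1 was chosen by its slope over age, the steepest rise of all genes, and the other 3 as genes of the metal response. The question was whether they rise with numr-1 over age and in the same worms. Members were matched by sequence name with the splice letter dropped, and each had 1 probe with a value in every worm.

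Transcripts of individual Caenorhabditis elegans of the wild-type strain N2 were profiled at 7 ages, with 1 worm on each 2-colour microarray. Day 4 had 13 worms, days 8, 12, 14 and 16 had 17 each, day 20 had 14 and day 24 had 9. All worms came from eggs laid within 2 hours, were kept at 20 °C on bacteria, and were each filmed on a plate without bacteria before freezing. The RNA of each worm, labelled with Cy5, was hybridised with Cy3-labelled RNA from 1 pool of 15 worms of day 4.

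Values are log2 ratios of worm over pool. No source used here states their log base or direction, and the usual ones were taken, so a reversed sign would turn every direction over age and against the pool. Relations between genes in the same worms would keep their sign. The dyes were never swapped, and any dye bias of a probe therefore enters all ages alike. A single cohort was harvested once per age. Age and harvest day cannot be told apart, and p-values reflect only how far worms of this cohort differed. In whole worms, fewer cells of a type and less RNA per cell cannot be told apart either. Of 22490 probes, 9 to 464 were missing per array, array medians lay between -0.034 and 0.009, and the number of worms limits the precision. A ratio to the pool shows no absolute level, so the genes are not compared with each other in level.

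Cells meet metals such as cadmium and excess zinc by binding them, exporting them and moving them into vesicles. Metallothioneins such as MTL-1 and MTL-2 are small cysteine-rich proteins that bind metal ions, and in C. elegans both genes are induced by cadmium, mainly in the intestine. mtl-1 is also a known target of DAF-16, the FOXO transcription factor of insulin signalling. cdr-1 was identified as a cadmium-responsive gene and encodes a lysosomal protein of intestinal cells. numr-1 encodes a nuclear protein that is induced by metals and also when RNA splicing is disturbed.

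The means of the 4 genes took different courses over age. The numr-1 mean stayed near the pool to day 8 and stood higher at each later age than at the one before. mtl-1 was far above its day 4 level at day 8 and was lower afterwards, mtl-2 peaked at day 14 and was back near its day 4 level at day 24, and cdr-1 moved least, with its highest mean at day 14.

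numr-1 lay at 0.27 ± 0.99 (mean ± SD, n = 13) at day 4 and at 0.25 ± 0.97 (n = 17) at day 8. At day 4 its lowest, median and highest worms were at -1.0, 0.41 and 2.15, and at day 8 at -1.13, 0.22 and 2.57. The worms of these ages covered the same range, with 7 of 13 and 11 of 17 above the pool.

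On days 12, 14 and 16 the numr-1 means were 2.19 ± 1.99, 2.99 ± 1.55 and 3.42 ± 2.0 (n = 17 each). Its lowest, median and highest worms were at -1.20, 1.92 and 5.52 on day 12, 0.38, 2.92 and 6.64 on day 14, and -0.79, 4.00 and 6.25 on day 16. At these ages single worms ran from near the pool to levels above the medians of days 20 and 24, and 14, 17 and 15 of the 17 worms lay above the pool.

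At day 20 the numr-1 mean was 4.93 ± 1.57 (n = 14), with the lowest, median and highest worms at 2.58, 5.03 and 7.20. At day 24 it was 5.60 ± 2.10 (n = 9), with the lowest, median and highest worms at 1.73, 5.38 and 8.74. Every worm of both ages was above the pool, and all 14 worms of day 20 lay above the highest day 8 worm, at 2.57.

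The order of the numr-1 means followed age, apart from days 4 and 8. Neighbouring ages overlapped throughout, and their means differed by less than the SD of either age between days 4 and 8, 12 and 14, 14 and 16, 16 and 20, and 20 and 24. The step from day 8 to day 12, at 1.94, was larger than the SD of day 8 and smaller than that of day 12. From day 4 to day 24 the mean differed by 5.34 (40.4-fold). These values are the ones numr-1 was chosen by and carry no test.

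The slope of numr-1 was 0.308 ± 0.0276 per day (log2, SE). The genes next in order were the tetraspanin genes tsp-1, at 0.253 per day, and tsp-2, at 0.241.

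numr-1 has a near-identical gene beside it, numr-2 (F08F8.1), with 0 protein-coding genes between them in the reference annotation. Each has a probe of its own, which may bind transcripts of both, so the values of either are uncertain. The numr-2 means were 0.71, 0.18, 0.78, 0.12, 0.15, 0.42 and 0.37 at days 4, 8, 12, 14, 16, 20 and 24. They showed no course like that of numr-1: the numr-2 slope was -0.0123 ± 0.0165 per day (limma adjusted p = 0.644). Its relation with numr-1 in the same worms was 0.103 ± 0.0587 per log2 unit (adjusted p = 0.238, age means removed).

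**Figure D1:**
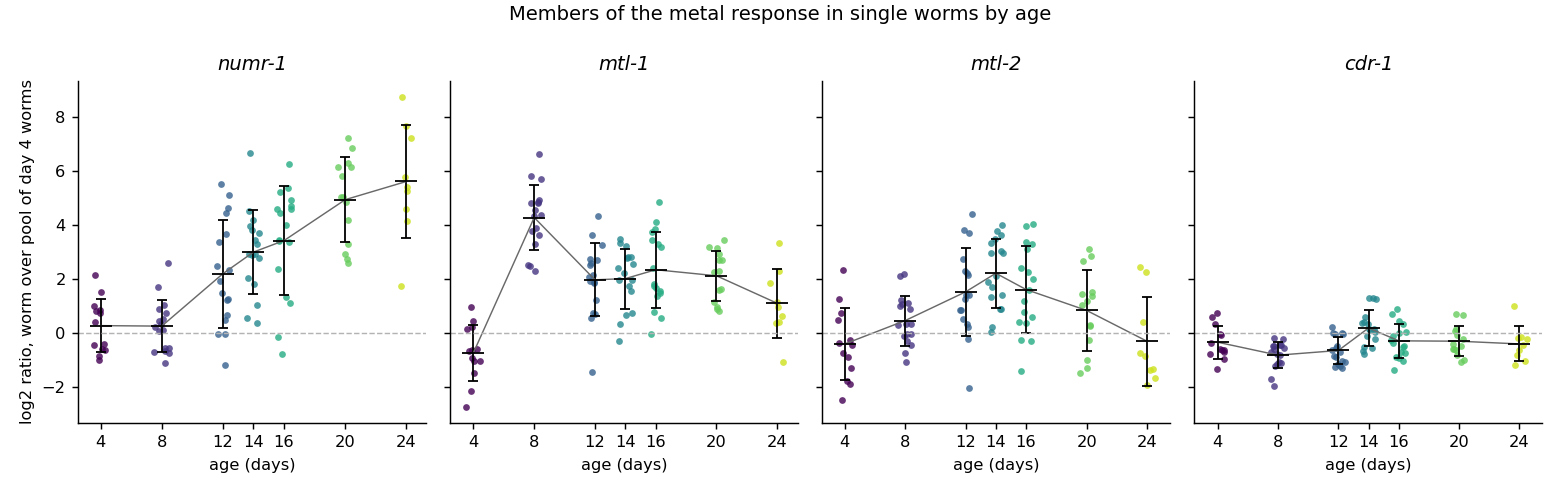
Log2 ratio of worm over pool (y axis) against age in days (x axis) for the 4 genes. Points are single worms (spread sideways for clarity), black bars the mean ± SD, and the dashed line the pool. The numr-1 means go from 0.27 at day 4 to 5.60 at day 24, while mtl-1 stands highest at day 8 (4.27), and mtl-2 (2.20) and cdr-1 (0.18) at day 14.

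mtl-1 encodes 1 of the 2 metallothioneins. At day 4 its mean was -0.73 ± 1.03 (n = 13), with the lowest, median and highest worms at -2.75, -0.69 and 0.95. At day 8 it was 4.27 ± 1.21 (n = 17), with 2.30, 4.38 and 6.60. The groups did not overlap: the lowest day 8 worm stood above the highest day 4 worm. mtl-1 was 32.1-fold higher at day 8 than at day 4 (difference 5.00 ± 0.44, limma adjusted p = 7.55e-17), where 11.4% of all genes passed the test.

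From day 8 to day 12 mtl-1 fell by 2.31 ± 0.41 on the log2 scale (4.95-fold, adjusted p = 1.55e-05), a step in which 15.6% of all genes passed. Its means at days 12, 14, 16 and 20 were 1.96 ± 1.35, 2.01 ± 1.11, 2.34 ± 1.40 and 2.11 ± 0.93. Over those ages its worms ran from -1.44 to 4.85. These 4 means lay within 1 SD of each other, and 16, 16 and 16 of 17 worms and 14 of 14 were above the pool.

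At day 24 the mtl-1 mean was 1.09 ± 1.27 (n = 9), with the lowest, median and highest worms at -1.07, 0.95 and 3.31. From day 8 to day 24 mtl-1 fell by 3.18 ± 0.49 on the log2 scale (9.03-fold, adjusted p = 4.70e-07), where 15.1% of all genes passed. Day 24 was still higher than day 4, by 1.83 ± 0.51 (3.55-fold, adjusted p = 0.00694), where 16.5% of all genes passed. Day 8 was the only age whose mtl-1 mean stood more than 1 SD above those of its neighbours, and days 12 to 20 had no order beyond their spread.

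mtl-1 rose to day 8 while the numr-1 mean was still at its day 4 level, and it fell to day 12 while the numr-1 mean went from 0.25 to 2.19. mtl-1 was read beside 16 other DAF-16 targets. Of these, 9 were higher at day 8 than at day 4 and 0 lower, where 11.4% of all genes passed in either direction. The median difference of the 16 was 1.25, against -1.3e-05 for all genes. The ferritin gene ftn-1 went from -0.35 to 3.89 (adjusted p = 5.04e-13) and the lysozyme gene lys-7 from -1.47 to 2.70 (adjusted p = 1.81e-10). sod-3, a superoxide dismutase gene and widely used DAF-16 target that was named after its values were seen, was at -0.05 and -0.14 (adjusted p = 0.919). Over the slope of all 7 ages, 1 of the 17 DAF-16 targets with mtl-1 rose (5.88%, against 13.7% of all genes) and 7 fell (41.2%, against 14.2%).

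mtl-2 encodes the other metallothionein. It lay at -0.41 ± 1.35 at day 4, with the lowest, median and highest worms at -2.47, -0.44 and 2.34. At day 8 it was at 0.45 ± 0.93, with -1.10, 0.32 and 2.18. The groups overlapped, and the difference of 0.87 ± 0.52 did not pass (adjusted p = 0.311), unlike that of mtl-1; the 2 differences were not tested against each other.

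At day 12 the mtl-2 mean was 1.52 ± 1.62, with worms between -2.05 and 4.40, and at day 14 it was 2.20 ± 1.28, with the lowest, median and highest worms at 0.02, 2.10 and 3.97. Day 14 was the one age at which all 17 worms were above the pool. It was 6.15-fold higher than day 4 (difference 2.62 ± 0.52, adjusted p = 4.99e-05), a comparison that 20.1% of all genes passed. The difference of 1.06 between days 8 and 12 did not pass (adjusted p = 0.123).

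On days 16, 20 and 24 the mtl-2 means were 1.60 ± 1.62, 0.83 ± 1.49 and -0.32 ± 1.64. At day 24 its lowest, median and highest worms were at -1.93, -0.87 and 2.42, and 3 of 9 were above the pool. From day 14 to day 24 mtl-2 fell by 2.52 ± 0.58 on the log2 scale (5.74-fold, adjusted p = 0.0239), where 0.27% of all genes (51) passed. Day 24 differed from day 4 by 0.10 ± 0.61 (adjusted p = 0.947). No pair of neighbouring ages passed the test for mtl-2, so the order of its neighbouring means is not settled.

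cdr-1 encodes the lysosomal protein induced by cadmium. It lay below the pool at 6 of the 7 ages. On days 4, 8, 12 and 14 its means were -0.35 ± 0.62, -0.83 ± 0.49, -0.65 ± 0.52 and 0.18 ± 0.66. The day 8 worms ran from -1.95 to -0.21, with 0 of 17 above the pool, and the day 14 worms from -0.77 to 1.30, with 11 of 17 above it. cdr-1 was 2.01-fold higher at day 14 than at day 8 (difference 1.01 ± 0.20, adjusted p = 0.000139), where 16% of all genes passed.

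At days 16, 20 and 24 the cdr-1 means were -0.30 ± 0.64, -0.31 ± 0.55 and -0.41 ± 0.65. They differed from each other and from day 4 by less than the SD of any age. Day 24 minus day 4 was -0.06 ± 0.26 (adjusted p = 0.913), and day 14 minus day 12 was 0.83 ± 0.20 (adjusted p = 0.319).

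Differences among the 7 ages passed the moderated F test for mtl-1 (adjusted p = 1.74e-14), mtl-2 (adjusted p = 3.38e-05) and cdr-1 (adjusted p = 0.00134), as they did for 33% of all genes. None of the 3 passed the test of a slope over all ages, which 13.7% of all genes passed upward and 14.2% downward. The slopes were 0.0191 ± 0.0304 per day for mtl-1 (limma adjusted p = 0.702), 0.0318 ± 0.0276 for mtl-2 (adjusted p = 0.440) and 0.0165 ± 0.0111 for cdr-1 (adjusted p = 0.291). All 3 were far below the 0.308 per day of numr-1.

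A slope describes mtl-1 and mtl-2 poorly, since their means went up and then down. Without the day 8 worms the mtl-1 slope was 0.112 per day (adjusted p = 0.000871), and without the day 4 worms it was -0.153 (adjusted p = 2.67e-05). Without the day 24 worms the mtl-2 slope was 0.105 (adjusted p = 0.00631), and over days 12 to 24 alone it was -0.167 (adjusted p = 0.0141).

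In the later steps few genes of any kind passed. Between days 12 and 14 limma called 0% of all genes (1156 at an unadjusted p under 0.05), between days 14 and 16 0.0159% (3 genes), between days 16 and 20 0.254% (48 genes), and between days 20 and 24 0% (586 unadjusted). mtl-1, mtl-2 and cdr-1 were not called in any of these 4 steps.

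Worms of 1 age differed widely in numr-1, and the mean absolute deviation from the age mean grew by 0.0409 ± 0.0167 per day, given without a test. For mtl-1 that growth was 0.0061 ± 0.0121 per day (adjusted p = 0.818), for mtl-2 0.0259 ± 0.0134 (adjusted p = 0.256) and for cdr-1 0.00149 ± 0.0059 (adjusted p = 0.915). None passed, as against 3.41% of all genes. In simulated data a spread that grew 2-fold from day 4 to day 24 was found in 6% of 200 changed genes, so a change of that size would usually be missed.

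Whether worms of 1 age with more numr-1 transcript also had more of the other 3 was asked with the age means removed, which takes out the slope that chose numr-1. None of the other 3 passed the test with numr-1 over all genes, while the 3 pairs among them did. For cdr-1 the interval of its correlation with numr-1 lay above 0. All 6 pairs were computed over all worms, with 100000 permutations within ages.

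mtl-1 changed by 0.0450 ± 0.0738 per log2 unit of numr-1 (limma adjusted p = 0.750). Its Pearson r with numr-1 was 0.061 (95% interval -0.139 to 0.257, permutation p = 0.565) and its Spearman rho 0.097 (p = 0.346). Without the 2 worms farthest from the numr-1 median, with age means removed, r was 0.042. By r, mtl-1 stood in place 7427 of 18888 genes, close to the middle, where the median r was 0.0133.

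mtl-2 changed by -0.0229 ± 0.0872 per log2 unit of numr-1 (adjusted p = 0.902). Its r was -0.026 (95% interval -0.224 to 0.173, permutation p = 0.811) and its rho -0.025 (p = 0.812), in place 11110 of 18888. Without the 2 farthest worms r was -0.077. Neither metallothionein gene showed a relation with numr-1 of a size that this number of worms would resolve.

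cdr-1 changed by 0.0825 ± 0.0358 per log2 unit of numr-1, which did not pass over all genes (adjusted p = 0.0992). Its r was 0.230 (95% interval 0.033 to 0.410, unadjusted permutation p = 0.0251) and its rho 0.246 (p = 0.0146), in place 2559 of 18888. Without the 2 farthest worms r was 0.183. Of all genes, 10.8% were called higher with numr-1 (2045 genes) and 7.43% lower (1404 genes), so 0 of the 3 stands beside a background in which many genes varied with numr-1.

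mtl-1 and mtl-2 varied together: mtl-2 changed by 0.682 ± 0.0971 per log2 unit of mtl-1 (adjusted p = 3.77e-07), where 2.76% of all genes passed with mtl-1. Their r was 0.577 (95% interval 0.428 to 0.696) and rho 0.560, both at permutation p = 1e-05, the smallest these permutations give. Without the 2 worms farthest from the mtl-1 median, with age means removed, r was 0.552. For the pairs with cdr-1 below, the 2 farthest worms were chosen by mtl-1 or mtl-2, the gene paired with it. mtl-2 was in place 14 of 18888 genes by its r with mtl-1, and mtl-1 in place 93 by its r with mtl-2.

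cdr-1 varied with both. It changed by 0.196 ± 0.0461 per log2 unit of mtl-1 (adjusted p = 0.00427; r = 0.401, permutation p = 3e-05; rho = 0.40, p = 4e-05; r = 0.422 without the 2 farthest worms). It changed by 0.160 ± 0.0392 per log2 unit of mtl-2 (adjusted p = 0.00240), where 11.1% of all genes passed with mtl-2. Its r with mtl-2 was 0.387 (permutation p = 6e-05), its rho 0.360 (p = 0.00031), and r was 0.364 without the 2 farthest worms. With cdr-1 as the covariate, 2.8% of all genes passed, mtl-1 (adjusted p = 0.00672) and mtl-2 (adjusted p = 0.00964) among them and numr-1 not (adjusted p = 0.192).

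**Figure D2:**
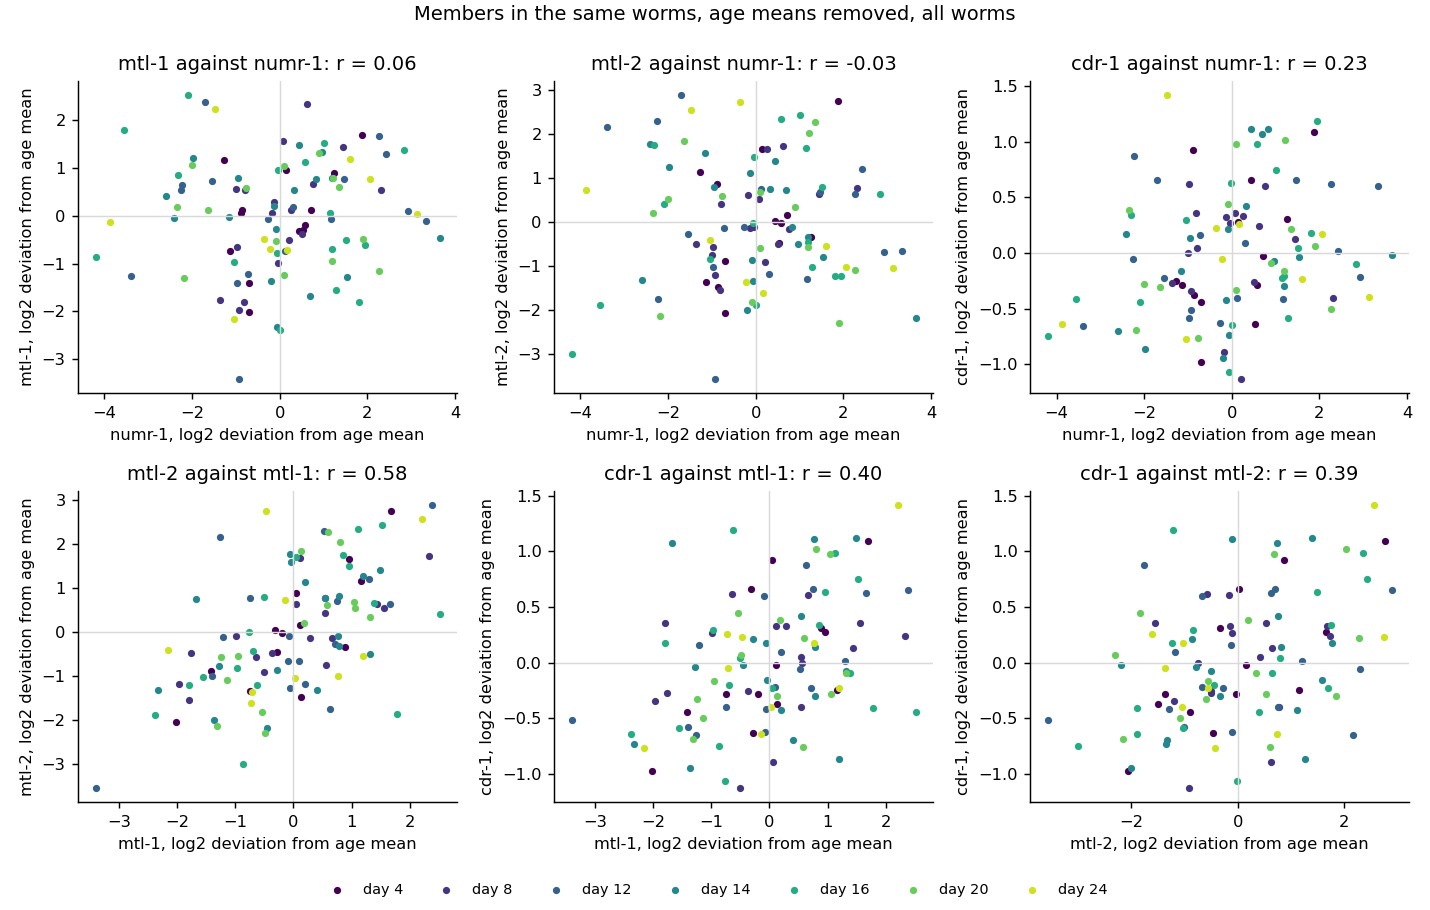
Each panel plots 1 gene against another as log2 deviations from the mean of the worm's age, with 1 point per worm coloured by age. The 3 panels with numr-1 (r = 0.061, -0.026 and 0.230) are flatter, and those of mtl-1 with mtl-2 (0.577), mtl-1 with cdr-1 (0.401) and mtl-2 with cdr-1 (0.387) slope upward.

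Single worms serve as examples here and do not stand for all worms of an age. At day 14 the worm with the highest numr-1 of its age, 6.64, had the lowest mtl-2, 0.02. At day 24 the worm with the highest numr-1 of all ages, 8.74, had mtl-1 at 1.13, mtl-2 at -1.36 and cdr-1 at -0.81. At day 12 the worm with the highest mtl-1 (4.34) and the highest mtl-2 (4.40) was in place 14 of 17 for numr-1, at 0.49. In these worms numr-1 and mtl-2 stood apart, while mtl-1 of the day 24 worm was in place 4 of 9 from the highest. Over all worms r of numr-1 was 0.061 with mtl-1 and -0.026 with mtl-2, so they show no general opposition.

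In other worms several of the genes were high or low together. At day 4 a single worm had the highest value of all 4 genes, 2.15 for numr-1, 0.95 for mtl-1, 2.34 for mtl-2 and 0.74 for cdr-1. At day 16 the worm with the lowest numr-1, -0.79, also had the lowest mtl-2, -1.40, with mtl-1 at 1.47, in place 13 of 17 from the highest. At day 12 the lowest mtl-1 (-1.44) and the lowest mtl-2 (-2.05) were in 1 worm, with numr-1 at 1.27, in place 11 of 17 from the highest.

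Within single ages, r between numr-1 and mtl-1 was 0.465, 0.565, 0.228, -0.172, -0.243, -0.109 and 0.156 at days 4, 8, 12, 14, 16, 20 and 24. Between numr-1 and mtl-2 it was 0.467, 0.538, -0.179, -0.450, 0.339, -0.058 and -0.487. Both pairs stood higher at days 4 and 8 than at any later age, although the numr-1 of those worms varied around the pool. In days 4 and 8 alone the changes per log2 unit of numr-1 were 0.609 ± 0.185 for mtl-1 (adjusted p = 0.319) and 0.568 ± 0.187 for mtl-2 (adjusted p = 0.378), a subset chosen after seeing the data.

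Whether the relation with numr-1 differed between ages was tested as an interaction with age in days. The relation changed by -0.0242 ± 0.0147 per day for mtl-1 (adjusted p = 0.815), by -0.0317 ± 0.0173 for mtl-2 (adjusted p = 0.773) and by -0.00597 ± 0.0072 for cdr-1 (adjusted p = 0.957). limma called 0% of all genes in that test (1265 at an unadjusted p under 0.05), so the higher r of the young worms was not shown to differ from that of the old.

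The pairs without numr-1 had r above 0 at each age, given as a description of 9 to 17 worms per age. Between mtl-1 and mtl-2, r was 0.820, 0.737, 0.577, 0.440, 0.559, 0.702 and 0.348 from day 4 to day 24, above 0 at 7 of 7 ages. Between mtl-1 and cdr-1 it ran from 0.196 to 0.681 and between mtl-2 and cdr-1 from 0.142 to 0.756, both above 0 at 7 of 7 ages. Some of these rest on few worms. Without the 2 farthest worms r of mtl-1 and mtl-2 was 0.073 at day 12 and -0.113 at day 24, and at day 24 r with cdr-1 was -0.216 for mtl-1 and -0.755 for mtl-2. For mtl-2 and cdr-1 it was also below 0 without them at day 8 (-0.0129) and day 12 (-0.189).

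**Figure D3:**
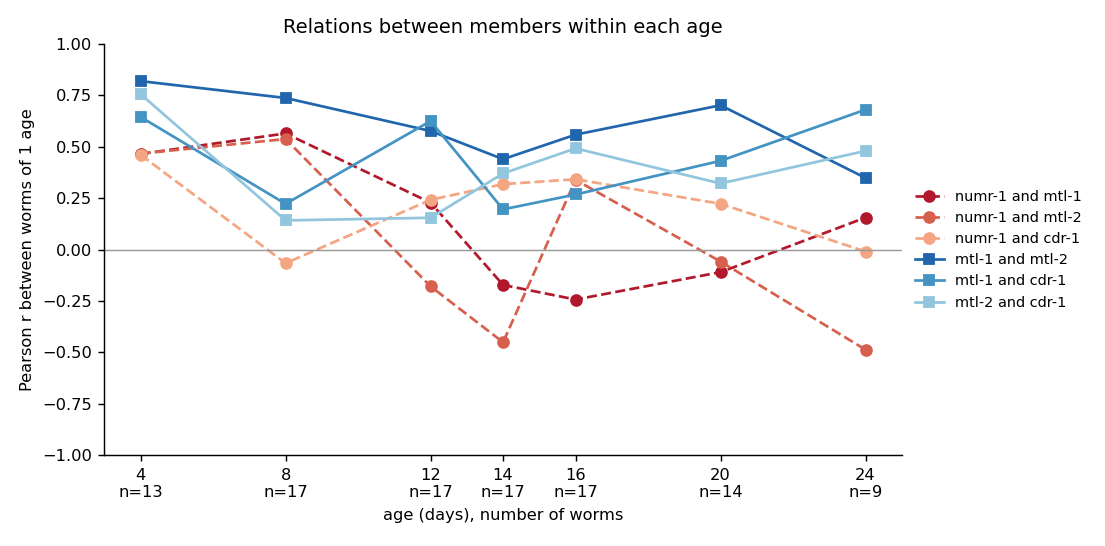
Pearson r between worms of 1 age (y axis) against age in days, with the number of worms under each age, for the 6 pairs. Dashed lines with circles are pairs with numr-1 and cross 0, while solid lines with squares are the 3 pairs without it and stay above 0, between 0.142 and 0.820.

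Markers of several tissues varied between worms of 1 age along with these genes. Mean ratios of 7 marker lists, the first principal component of all genes and the number of missing probes were correlated with each of the 4 genes, 36 relations in all. In these relations the 2 farthest worms were chosen by the marker mean, the component or the number of missing probes, with age means removed, and not by the gene. The mean of 16 intestinal markers varied with mtl-1 (r = 0.500, rho = 0.473), mtl-2 (r = 0.694, rho = 0.657) and cdr-1 (r = 0.483, rho = 0.462), each at adjusted permutation p = 7.2e-05 for r, and r was 0.477, 0.668 and 0.446 without the 2 farthest worms. With numr-1 its r was 0.049 (rho = 0.057, adjusted p = 0.703). mtl-1, mtl-2 and cdr-1 thus varied with the intestinal mean, and a relation of numr-1 with that mean was not detected. Single markers went both ways. Of the 16, 2 were called higher with numr-1 (12.5%) and 1 lower (6.25%), against 10.8% and 7.43% of all genes. The higher ones included act-5 (0.582 per log2 unit, limma adjusted p = 1.15e-05).

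With the intestinal marker mean as a further covariate, an alternative added after seeing the data, the relations among the 3 genes were smaller and did not pass. mtl-2 changed by 0.363 ± 0.0926 per log2 unit of mtl-1 (adjusted p = 0.0702), cdr-1 by 0.104 ± 0.0501 per unit of mtl-1 (adjusted p = 0.458) and by 0.0410 ± 0.0520 per unit of mtl-2 (adjusted p = 0.808). With the same covariate, the change per unit of numr-1 was 0.0269 for mtl-1, -0.0528 for mtl-2 and 0.0742 for cdr-1, none of them called. How far the amount of intestinal RNA in a worm accounts for the relations was not tested.

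Over age the intestinal markers went down while mtl-1 and mtl-2 were above their day 4 levels. From day 4 to day 24 their mean was -0.67, -1.03, -1.52, -1.35, -1.44, -1.88 and -2.14. Of the 16 markers 1 rose (6.25%, against 13.7% of all genes) and 9 fell (56.2%, against 14.2%) over the slope. mtl-2 was low both at day 24, which had the lowest intestinal mean, and at day 4, which had the highest. mtl-1 was highest at day 8, when the intestinal mean was below that of day 4 and above those of all later ages. How far the amount of intestinal RNA enters the course of either gene over age was not tested.

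Of all genes, 10.8% were called higher with numr-1 and 7.43% lower, the shares to set beside the marker counts here. numr-1 varied with markers of other tissues. Its r with the mean of 14 germline and oocyte markers was -0.531 (rho = -0.542, adjusted p = 7.2e-05, -0.520 without the 2 farthest worms), and all 14 were called lower in worms with more numr-1. Its r with the mean of 12 hypodermal markers was 0.455 (rho = 0.395, adjusted p = 0.00012, 0.409 without the 2 farthest worms), with 4 called higher and 0 lower. With 12 neuronal markers it was 0.287 (adjusted p = 0.0143), while rho, 0.219, did not pass (adjusted p = 0.0764), with 3 higher and 1 lower, and r was 0.173 without the 2 farthest worms. For cdr-1, r with the germline markers was -0.299 (rho = -0.316, adjusted p = 0.0107). With the mean of 11 body wall muscle markers, r was 0.322 for cdr-1 (rho = 0.301, adjusted p = 0.00612, 0.282 without the 2 farthest worms) and 0.260 for mtl-2 (adjusted p = 0.0299; rho = 0.221, adjusted p = 0.0764; r = 0.234 without the 2 farthest worms).

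The mean of the germline markers was -0.17 at day 4 and 0.14 at day 8, and lay between -0.84 and -0.56 from day 12 on, the ages at which numr-1 was high. Of 14 germline markers 0 rose and 9 fell over the slope. Of all genes, 13.7% rose and 14.2% fell, the shares to set beside these and the following counts. Of the other lists, 0 rose and 6 fell of 11 body wall muscle markers, 2 rose and 0 fell of 9 pharyngeal, 4 rose and 1 fell of 12 neuronal, 3 rose and 3 fell of 12 hypodermal, and 2 rose and 0 fell of 7 sperm markers. With numr-1, 1 muscle and 2 pharyngeal markers were higher, 0 of either were lower, and 0 sperm markers were called. Of all genes, 10.8% were higher with numr-1 and 7.43% lower.

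The first principal component, 7.35% of the variance within ages, also varied with numr-1 (r = -0.609, rho = -0.572, adjusted p = 7.2e-05, -0.554 without the 2 farthest worms). The number of missing probes did so too (r = -0.295, rho = -0.309, adjusted p = 0.0116, -0.286 without the 2 farthest worms). The component also varied with mtl-2 (r = -0.315, rho = -0.248, adjusted p = 0.00856, -0.244 without the 2 farthest worms) and cdr-1 (r = -0.316, rho = -0.335, adjusted p = 0.00612, -0.269 without them), and with mtl-1 its r was -0.137 (adjusted p = 0.316). The component was computed from all genes, the members included, so as a covariate it takes out part of their own variation. With the component as a further covariate, the change per log2 unit of numr-1 was -0.0259 for mtl-1 (adjusted p = 0.949), -0.301 ± 0.101 for mtl-2 (adjusted p = 0.126) and 0.0215 for cdr-1 (adjusted p = 0.900), none of them called. The part of missing probes in these relations was not tested.

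The wider metal response was read from 9 lists of transporters, binding proteins and regulators. Beside the 4 genes, 61 of its 66 genes were measured. Over age 12 rose (19.7%) and 10 fell (16.4%), with a median slope of -0.00126 per day against 0.000176 for all genes, and the shares are set beside 13.7% and 14.2% of all genes. Over days 12 to 24 alone, 3 of the 61 rose and 3 fell. In that fit 1048 of all 18889 genes were called in either direction, against 5257 over all ages.

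In the same worms 18 of the 61 were higher with numr-1 (29.5%, against 10.8% of all genes) and 4 lower (6.56%, against 7.43%). The median change of the 61 was 0.0453 per log2 unit against 0.00602 for all genes. Counts of the single lists below stand beside the same shares of all genes, and over age beside 13.7% rising and 14.2% falling. The first principal component was computed from all genes, numr-1 included, and varied with numr-1 (r = -0.609). As a covariate it takes out part of the variation of numr-1 itself, so fewer calls do not settle whether the relations hold. With it as a further covariate, added after seeing the data, 84 of all 18888 genes tested were higher in place of 2045, and those lower were not counted. Of the 61, 2 were higher and 0 lower by limma (7 and 5 at an unadjusted p under 0.05). Those 2 were the ABC transporter gene mrp-2 (0.379 ± 0.0558, adjusted p = 1.58e-05) and the arsenite-inducible gene aip-1 (0.185 ± 0.0384, adjusted p = 0.00491).

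Among 6 measured genes of the cdr family 1 rose and 0 fell over age. It was cdr-4, with means of 0.99 at day 4, 0.23 at day 12 and 2.12 at day 24 (slope 0.0603 per day, adjusted p = 0.0200). With numr-1, cdr-4 (0.333 ± 0.0640 per log2 unit, adjusted p = 5.73e-05) and cdr-6 (0.121, adjusted p = 0.0359) were higher. cdr-1 itself passed neither test.

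Of 7 genes of heavy metal export and chelation 2 rose and 1 fell. mrp-2 had means of 0.06, 0.34, 2.11, 2.60, 2.70, 3.41 and 3.60 from day 4 to day 24, at 0.207 ± 0.0187 per day (adjusted p = 7.07e-16). mrp-2 was also higher with numr-1 in the same worms (0.472 ± 0.0457 per log2 unit, adjusted p = 1.84e-13). kel-8, a kelch-repeat protein gene, also rose over the slope (0.0561 per day, adjusted p = 0.0233), although its mean was 0.66 at day 4 and 0.32 at day 24, and was higher with numr-1 (0.149, adjusted p = 0.0405). The P-glycoprotein gene pgp-1 fell at a slope of -0.0740 per day (adjusted p = 0.00126), and its change with numr-1 was 0.156 (adjusted p = 0.0714).

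Of 18 zinc transport genes 1 rose (5.56%, against 13.7% of all genes) and 4 fell (22.2%, against 14.2%). With numr-1, 3 were higher (16.7%, against 10.8%) and 3 lower (16.7%, against 7.43%). The ZIP zinc transporter gene zipt-7.2 rose from -1.24 at day 4 to 0.20 at day 24 (0.0665 per day, adjusted p = 0.000945) and was higher with numr-1 (0.173, adjusted p = 0.00918). zipt-1 fell (-0.0691 per day, adjusted p = 2.78e-07) and was lower with numr-1 (-0.143, adjusted p = 0.00188), as was zipt-7.1 (-0.0595 per day, adjusted p = 0.00043; -0.133 with numr-1, adjusted p = 0.0401). Members of this family went both ways.

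Of 2 copper transport genes the chaperone gene cuc-1 fell (-0.0345 per day, adjusted p = 0.0382), and the copper ATPase gene cua-1 was higher with numr-1 (0.122, adjusted p = 0.000886). Of 9 iron and manganese genes 0 rose and 1, the NRAMP transporter gene smf-3, fell (-0.0363 per day, adjusted p = 0.0144). With numr-1, 4 of these 9 were higher, among them the aconitase and iron regulatory protein homologue gene aco-1 (0.297, adjusted p = 4.93e-05), the NRAMP gene smf-1 (0.173, adjusted p = 0.00105) and the ferroportin gene fpn-1.1 (0.238, adjusted p = 0.00548). The ferritin gene ftn-1, which stores iron, was lower (-0.284, adjusted p = 0.00152).

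Of 7 arsenite and glutathione genes 3 rose and 3 fell. aip-1 rose from 0.57 at day 4 to 2.06 at day 24 (0.0797 per day, adjusted p = 4.02e-10) and asna-1, an ATPase gene linked to arsenite tolerance, from 0.21 to 1.08 (0.0494 per day, adjusted p = 3.49e-09). Both were higher with numr-1, at 0.163 (adjusted p = 3.62e-05) and 0.102 (adjusted p = 0.000249), as was the glutathione synthesis gene gcs-1 (0.0819, adjusted p = 0.00987). The glutathione S-transferase genes gst-10 (-0.0884 per day, adjusted p = 1.17e-09) and gst-4 (-0.0362, adjusted p = 0.00205) fell.

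Of 12 regulators of the metal response 5 rose (41.7%, against 13.7% of all genes) and 0 fell. With numr-1, 3 were higher (25%, against 10.8% of all genes) and 0 lower. The p38 MAP kinase gene pmk-1 rose from 0.30 at day 4 to 1.58 at day 12 and 1.59 at day 24 (0.0780 per day, adjusted p = 2.73e-05) and was higher with numr-1 (0.273, adjusted p = 3.54e-06). Its upstream kinase gene sek-1 did both as well (0.0394 per day, adjusted p = 0.0223; 0.199, adjusted p = 0.000732). The kinase genes jkk-1 (0.0363 per day, adjusted p = 0.00274) and kgb-1 (0.0253, adjusted p = 0.00728) rose, and mek-1 was higher with numr-1 (0.140, adjusted p = 0.000655).

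**Figure D4:**
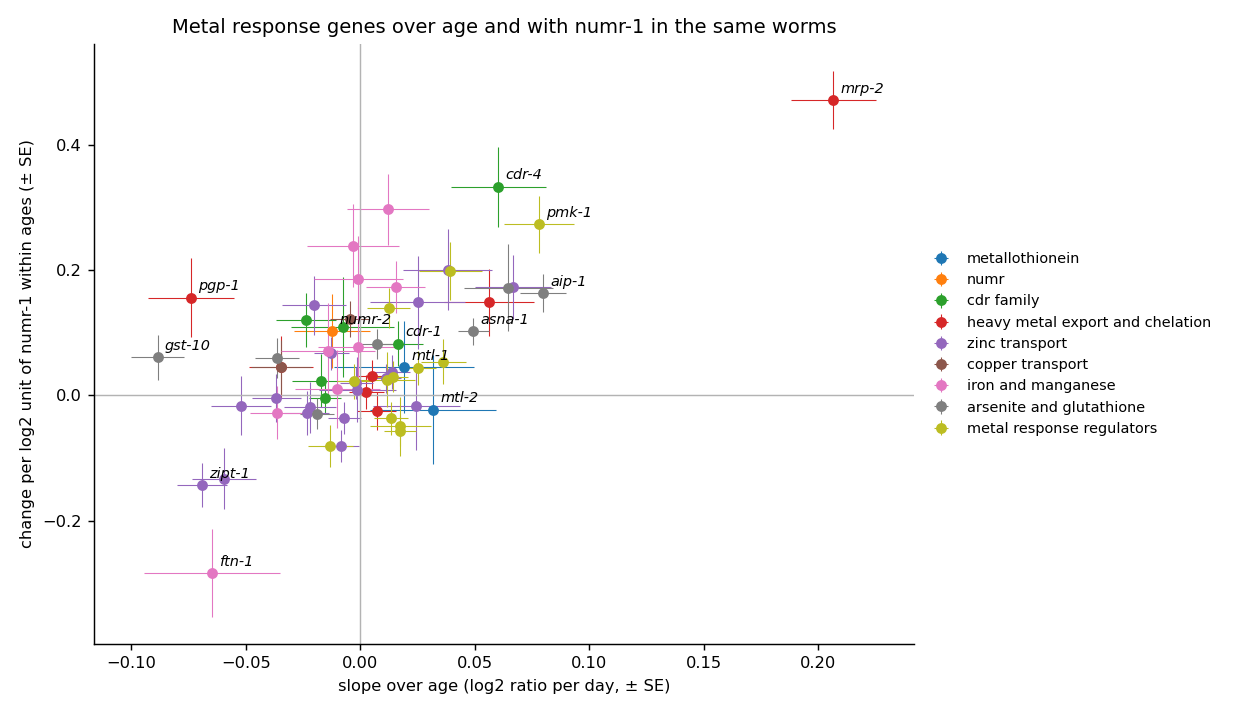
Slope over age in log2 ratio per day (x axis) against the change per log2 unit of numr-1 within ages (y axis) for the measured metal response genes other than numr-1, with 1 point per gene, SE bars on both axes and colours by list. mrp-2 (0.207 and 0.472) stands apart at the upper right, and mtl-1, mtl-2 and cdr-1 lie near 0 on both axes.

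numr-1 is known to respond when splicing is disturbed, and some heat shock genes to cadmium. Of 40 splicing genes 12 rose (30%, against 13.7% of all genes) and 3 fell (7.5%, against 14.2%) over age. With numr-1, 5 were higher (12.5%, near the 10.8% of all genes) and 0 lower (2 at an unadjusted p under 0.05). rsp-3, an SR splicing factor gene, rose from 0.68 at day 4 to 2.32 at day 12 (slope 0.0878 per day, adjusted p = 9.72e-07) and was higher with numr-1 (0.162, adjusted p = 0.00461). Of 5 measured genes on a list of heat shock genes linked to cadmium, 0 rose and 2 fell over age (40%, against 14.2% of all genes). Whether cadmium induces each of the 5 was not checked. With numr-1 in the same worms, 2 were higher (40%, against 10.8% of all genes) and 0 lower, a count from few genes. hsp-16.41 changed by 0.510 ± 0.0688 per log2 unit of numr-1 (adjusted p = 2.68e-08), while its means went from 6.31 at day 4 to 2.42 at day 12 and 5.84 at day 16. At day 4 the worms and the pool were of the same age, so the ratio of 6.31 is not a difference of age, and its source was not tested. The probes of the hsp-16 genes may bind transcripts of several of them.

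The genes most like numr-1 were named by their Pearson r with it over the worms of all ages, among genes with a gene name, and are given as a description. They were mrp-2 (0.868), the calpain protease gene clp-4 (0.852), sqst-1 (0.826), which encodes the p62-like receptor of autophagy, srr-4 (0.808), zip-2 (0.803), a bZIP transcription factor gene of the response to pathogens, rrf-2 (0.801), of the RNA-directed RNA polymerase family, cest-32 (0.800) and the Ste20-like kinase gene cst-1 (0.791). These r values share the age course that chose numr-1. The means of sqst-1 were 0.86, 1.98, 3.13, 3.08, 3.42, 3.95 and 4.19 from day 4 to day 24, so that sqst-1, unlike numr-1, stood higher at day 8 than at day 4.

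With age means removed the highest r with numr-1 among genes with a gene name were those of mrp-2 (0.724), srr-4 (0.703), sqst-1 (0.702), crp-1 (0.668), a small GTPase gene, and the annexin gene nex-2 (0.666), in places 2, 3, 4, 7 and 8 among all genes. The lowest were those of arle-14 (-0.575), syp-4 (-0.547), a synaptonemal complex gene, brc-2 (-0.532), the BRCA2 homologue, puf-7 (-0.531), of the Pumilio family, and pdp-1 (-0.526). mrp-2, srr-4 and sqst-1 were thus in both groups of genes most like numr-1, over all worms and within ages.

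Among genes with a gene name, those most like the other 3 within ages were different ones, and none of the genes named for numr-1 recurred. For mtl-1 they were kola-4 (0.662), lro-1 (0.635), sid-2 (0.609), which takes up double-stranded RNA in the intestine, the galectin gene lec-11 (0.588) and ttr-44 (0.587). For mtl-2 they were the saposin-like gene spp-16 (0.800), vrp-1 (0.794), dct-11 (0.752), nlt-1 (0.742) and clc-26 (0.710). For cdr-1 they were the innexin gene inx-15 (0.558), clec-150 (0.549), act-5 (0.521), the actin of intestinal microvilli, irg-8 (0.508) and clc-1 (0.492).

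All 5 genes named for cdr-1 were called higher with numr-1 in the same worms. By adjusted p they ran from act-5 (0.582 per log2 unit, adjusted p = 1.15e-05) to clec-150 (0.266, adjusted p = 0.0268). Of all genes, 10.8% were called higher and 7.43% lower. Of the 10 named for mtl-1 and mtl-2, 0 were called with numr-1 by limma (0 at an unadjusted p under 0.05), with adjusted p from 0.316 for clc-26 to 0.996 for spp-16. With the first principal component as a further covariate, none of the 5 named for cdr-1 was called, with adjusted p from 0.686 (act-5) to 0.978 (irg-8). Of those named for mtl-1 and mtl-2, only nlt-1 was then called, and it was lower (-0.317 ± 0.0845, adjusted p = 0.0413). The same worms chose these genes, so this is a description, and the difference was not tested.

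**Figure D5:**
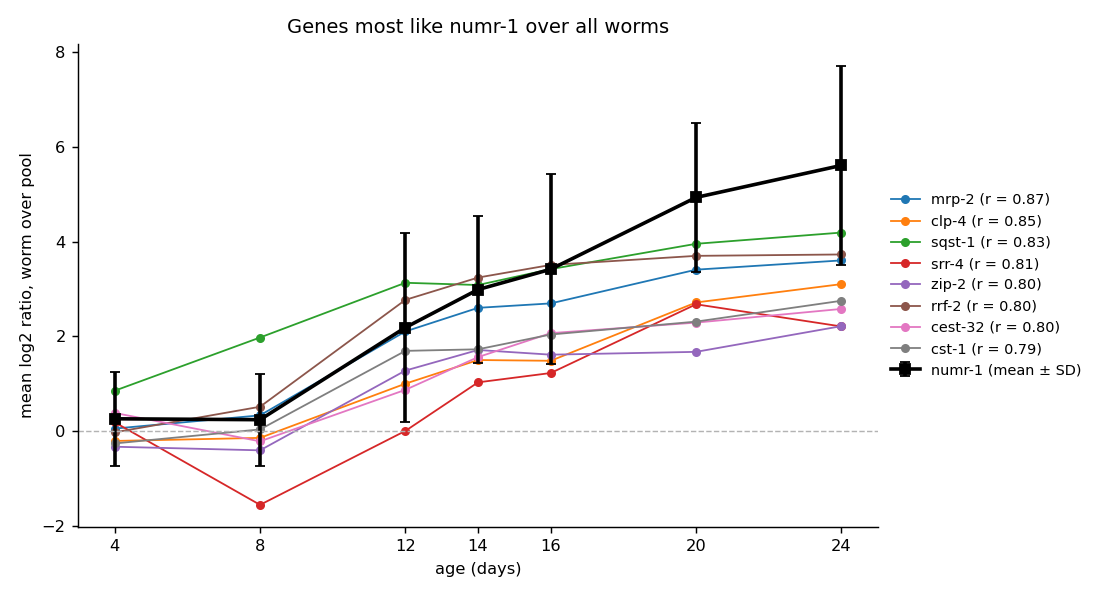
Mean log2 ratio of worm over pool (y axis) by age in days for numr-1 (black, mean ± SD) and the 8 genes whose log2 ratios over all worms were most like it, with r in the key. mrp-2 goes from 0.06 at day 4 to 3.60 at day 24 and sqst-1 from 0.86 to 4.19, against 0.27 to 5.60 for numr-1.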

How the data were processed

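Single-worm RNA was amplified linearly in 2 rounds, and samples that failed quality control were left out, per the labels' protocols. The authors deposited log ratios, taken as log2, for every probe and array in 2 identical tables (largest difference 0). The submitters' processing notes name limma, without a version. Sources used here do not give the background correction or within-array normalization, and with a median absolute deviation of 0.579 to 0.601 on every array, the arrays may have been scaled to 1 spread. Intensities were not used, so signal over background was not weighed.

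Probes were matched by sequence name to RefSeq genes of WBcel235 (21382 of 22490, 95.073%), used for names and neighbours only, and averaged per gene. Genes with a name numbered 10826. Missing values (0.537%) stayed missing. The files name no genome build, so coordinates are left out, and sequences were not used.

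limma 3.58.1 in R 4.3.3 (lmFit, eBayes) was fitted to all genes and all worms: a slope per day, age as a factor, and age as a factor with a worm's ratio of 1 gene as covariate. Calls are at a Benjamini-Hochberg adjusted p under 0.05 over all genes. Correlations were of deviations from age means, with permutations within ages (Python 3.11.15, scipy 1.17.1). Named genes were the 4 members, up to 4 of each list with the smallest p for the slope and up to 4 for the relation with numr-1, and the genes most like each member among genes with a gene name. Named beside these were tsp-1 and tsp-2, next to numr-1 in slope, and sod-3, which was named after its values were seen. The members, the 9 metal response lists and the DAF-16, heat shock, splicing and marker lists were chosen with earlier results of these data known. List genes with no measured match (such as cdr-5, pqn-5, zipt-2.1, chca-1 and hizr-1) were not analysed here.

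On simulated data the fits found 97% of slopes of 0.1 per day and 62% of slopes of 0.05, 86% of differences of 2 and 40% of differences of 1 between days 24 and 4, and 98% of relations with numr-1 of 0.4 and 68% of those of 0.2. Alternatives were quantile normalization, array weights, robust moderation, a filter on missing values, single probes, ages left out, ranks and covariates.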

Additional observations from a re-analysis of the deposited data

Results flagged for a closer look

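Day 24, the one age with few enough worms, was tested for a single far worm in the 4 genes and numr-2, 5 groups in all. In 1 of them a worm stood apart: the highest cdr-1 value, 1.01, lay far above the next of the 9 worms, at -0.15. Chance marks about 1 in 20 such groups. The same worm had the highest mtl-1 of its age, 3.31, the next-to-highest mtl-2, 2.24, and numr-1 at 4.13, in place 8 of 9. Without it and the worm with the lowest mtl-1, -1.07, r of cdr-1 with mtl-1 at day 24 was -0.216. Without it and the worm with the highest mtl-2, 2.42, r of cdr-1 with mtl-2 was -0.755. The worms left out were chosen by distance from the medians of mtl-1 and mtl-2, not of cdr-1.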

How the results depend on the processing

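Of 200 alternative values for 32 results, 176 kept their direction and their side of the threshold, or moved little. That count includes alternatives that could hardly differ. Each member had 1 probe, so single probes repeated its slope. Robust moderation and the filter on missing values left the slopes, differences and relations of the members unchanged and moved only their p-values slightly. The slope of mtl-1 turned sign with array weights (-0.00573), without day 4 (-0.153) and over days 12 to 24 (-0.0497), and passed without day 8 (0.112). The slope of mtl-2 turned without day 4 (-0.0413) and over days 12 to 24 (-0.167), and passed without day 24 (0.105). The slope of cdr-1 turned over days 12 to 24 (-0.00113), and the spread slope of mtl-1 without day 4 (-0.00174). The numr-1 slope, with no test, was 0.344 without day 4 and 0.280 without day 8. The relation of mtl-1 with numr-1, not called anywhere, turned under quantile normalization (-0.0341), over days 12 to 24 (-0.0196) and with the first principal component (-0.0259). That of mtl-2 turned without day 12 (0.0168), without day 14 (0.0378), without day 24 (0.0332) and in days 4 and 8 alone (0.568), and with the first principal component it was -0.301, from -0.0229.

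With the intestinal marker mean as covariate, added after seeing the data, the relations of mtl-2 with mtl-1 (0.363), cdr-1 with mtl-1 (0.104) and cdr-1 with mtl-2 (0.0410) lost their call, as did cdr-1 with mtl-1 over days 12 to 24 (0.196, also added later). Fewer worms entered that last fit, and the cause of the lost calls was not tested for any of them. Metal response genes called over days 12 to 24 were 3 up and 3 down (1048 of all genes, against 5257 over all ages). With the first principal component 2 were higher and 0 lower with numr-1 (84 of all genes higher, against 2045 without it). No paired analysis was possible because worms of different ages share no replicate that links them. Depth cannot be weighed without intensities, and each age is 1 harvest.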
